A study of Homo sapiens with 6 samples.

Results

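The genes described here are 10 components of the circadian clock, CLOCK, ARNTL, PER1, PER2, PER3, CRY1, CRY2, NR1D1, BHLHE40 and BHLHE41, out of 35474 genes counted in a human lung adenocarcinoma line. They were taken by gene symbol from the table of read counts, and all 10 were present. The set was selected on the counts in these same 6 libraries, with the difference between the groups already known, in particular that of BHLHE41, so the differences of these 10 genes are given as descriptions without a test. A549 is an established epithelial line of human lung adenocarcinoma. Cultures carried either siBAP18, small interfering RNA against BAP18, or siCtrl, a non-specific small interfering RNA, and RNA was taken from both groups at 48 h after transfection. BAP18 is a chromatin protein that associates with the remodeling factor BPTF and is listed as C17orf49. Each group held 3 biological replicates, and poly(A) RNA was sequenced in paired ends. Which of several siRNAs against BAP18 was used in these cultures, the time of day of collection and any synchronization of the cultures are not given in the sources used here.

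The circadian clock is a loop of transcription and repression that runs in most cells of the body. CLOCK and ARNTL, also named BMAL1, form a dimer that binds E-boxes and activates the PER, CRY and NR1D1 genes, and the PER and CRY proteins return to the nucleus and inhibit that dimer. NR1D1, also named REV-ERBα, represses ARNTL through ROR elements, while BHLHE40 and BHLHE41, also named DEC1 and DEC2, bind the same E-boxes as CLOCK and ARNTL and repress them. PER1 is also known as an early response gene that cyclic AMP signaling and glucocorticoids induce.

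The regulatory letters of these genes are shown first, since E-boxes and D-boxes are the elements through which the loop is wired. RefSeq (GRCh38.p14) gave 14 promoter windows of 300 bases for the 10 genes, each from 250 bases before to 50 bases after a transcription start site, and all 10 genes were matched, ARNTL under the name BMAL1. The E-box CACGTG was found in the windows of 3 of the 10 genes, BHLHE40, BHLHE41 and PER1, and in 8.775% of the 27305 genes with a window. The sequences below are the 250 bases before the start site of these 3 genes and of CIART, a further repressor of the loop described with the related genes, written 5′ to 3′ on the strand of the gene, with the E-box in capitals.

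BHLHE41, chr12:26125038-26125287, − strand: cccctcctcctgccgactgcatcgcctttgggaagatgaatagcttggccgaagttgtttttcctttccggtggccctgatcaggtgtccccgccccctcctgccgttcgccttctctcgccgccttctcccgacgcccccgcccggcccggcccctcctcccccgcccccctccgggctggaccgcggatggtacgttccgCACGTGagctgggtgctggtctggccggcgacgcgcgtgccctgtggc

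BHLHE40, chr3:4979187-4979436, + strand: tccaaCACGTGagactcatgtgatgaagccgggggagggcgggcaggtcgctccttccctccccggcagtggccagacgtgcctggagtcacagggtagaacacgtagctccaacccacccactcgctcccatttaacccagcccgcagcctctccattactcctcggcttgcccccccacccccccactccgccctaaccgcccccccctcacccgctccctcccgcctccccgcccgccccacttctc

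PER1, chr17:8152405-8152654, − strand (the second stretch in capitals, TGACCT, is a ROR site of 6 letters read on the opposite strand): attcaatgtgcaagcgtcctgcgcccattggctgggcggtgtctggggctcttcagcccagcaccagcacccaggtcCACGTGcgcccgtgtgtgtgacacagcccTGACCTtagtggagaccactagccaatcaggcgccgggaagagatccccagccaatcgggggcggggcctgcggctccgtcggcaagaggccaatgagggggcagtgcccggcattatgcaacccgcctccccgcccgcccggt

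CIART, chr1:150282304-150282553, + strand: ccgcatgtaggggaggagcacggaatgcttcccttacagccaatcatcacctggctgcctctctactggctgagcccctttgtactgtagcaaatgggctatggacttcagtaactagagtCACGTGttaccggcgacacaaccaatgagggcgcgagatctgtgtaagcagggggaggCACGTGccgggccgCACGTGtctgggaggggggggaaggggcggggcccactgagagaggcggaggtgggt

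The E-box of BHLHE41 began 48 bases before the start site, that of PER1 173 bases and that of BHLHE40 245 bases before it. CIART held 3 E-boxes, which began 129, 71 and 57 bases before its start site. The D-box core TTANGTAA, the element of the PAR bZIP factors, was found in 2 of the 10 genes, PER2 and PER3, and in 2.714% of all genes with a window. The 60 bases around each are shown with the D-box in capitals.

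PER2, chr2:238288591-238288650, − strand: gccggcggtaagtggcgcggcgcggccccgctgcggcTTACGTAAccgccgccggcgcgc

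PER3, chr1:7784088-7784147, + strand: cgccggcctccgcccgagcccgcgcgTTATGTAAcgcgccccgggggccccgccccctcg

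The D-box began 3 bases before the start site of PER2 and 177 bases before that of PER3. The short site TGACG, bound by factors of the CREB family, occurred in 4 of the 10 genes, CLOCK, PER2, CRY1 and CRY2, against 28.42% of all genes. The ROR site AGGTCA occurred in 3, ARNTL, PER1 and CRY2, against 16.53% of all genes. All motifs were searched on both strands, and no match of 1 motif overlapped that of another in the 14 windows. The window of NR1D1 held none of the 4 motifs, which says only that these letters were not in these 300 bases. A match describes the letters and not binding, which was not measured.

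**Figure D1:**
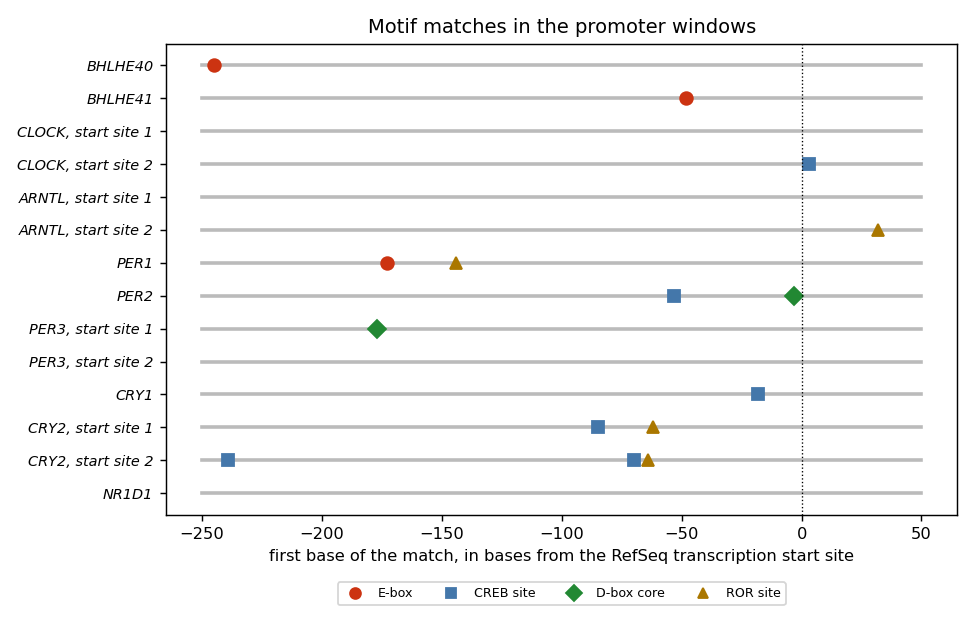
Positions of the 4 motifs in the 14 RefSeq promoter windows of the 10 clock genes. The horizontal axis gives the first base of each match relative to the transcription start site (dotted line), each gray line is 1 window from 250 bases before to 50 after the start, and the marker shape gives the motif. E-boxes lie in the windows of BHLHE40, BHLHE41 and PER1, D-box cores in those of PER2 and PER3, and NR1D1 has none of the 4.

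Values of single libraries are given in the order of replicates 1, 2 and 3. The libraries held 42094524 to 56548620 counts, and a count of 0 allows up to 3 counts of such a total, counting error alone considered. C17orf49, the target, was counted 743, 751 and 705 times in the siCtrl libraries and 120, 137 and 108 times in the siBAP18 libraries, a log2 fold change of −2.65 (standard error 0.111). Of the epithelial markers, KRT8 lay between 1384 and 2003 RPKM and EPCAM between 23.3 and 36.4 in the 6 libraries, KRT7 and KRT18 above 548 RPKM, and CDH1, which encodes E-cadherin, between 4.02 and 10.7 with a log2 fold change of −1.32. RPKM, the authors' unit, is a count divided by gene length in kilobases and by the library's total. Of the markers of other cell types, COL1A1 lay between 0.844 and 1.31 RPKM, PECAM1 between 0.0228 and 0.108, COL1A2, PDGFRB and VWF at or below 0.0152, and CD68, a lysosomal protein used as a macrophage marker, between 28.7 and 69.7 with a log2 fold change of 1.04. PTPRC and DCN were not analysed here. Mitochondrial genes took 6.86% to 7.43% of the counts in siCtrl and 5.27% to 6.14% in siBAP18, and the part of these differences in the results below was not tested. Among the siBAP18 libraries, replicate 3 gave the lowest value for 39.5% of the 20776 genes tested, against 25.1% for replicate 1 and 35.4% for replicate 2.

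Of the 10 clock genes, 7 were higher in each siBAP18 library than in each siCtrl library. These were the repressors BHLHE40, BHLHE41, PER1, PER3, CRY1, CRY2 and NR1D1. In the same way 1 gene, the activator CLOCK, was lower. The groups overlapped for the activator ARNTL and for PER2, which is also a repressor. In bulk samples such as these, fewer cells with a transcript and less of it in each cell cannot be told apart. All 10 passed the filter on low counts. Genes were called where the adjusted p was below 0.05 and the log2 fold change passed 1 in size. By that rule 4 of the 10 were higher, BHLHE41, PER1, NR1D1 and PER3, and none was lower, while 4.72% of all genes tested were called higher and 3.74% lower. With the adjusted p alone, 7 of the 10 were higher and 1 was lower, against 24.5% and 25.1% of all genes. The 7 genes whose siBAP18 libraries all lay above siCtrl, and the 1 whose libraries all lay below, stand beside 27.6% and 29.0% of all genes in the same position. Since these values chose the genes, nothing is read from the counts. The median log2 fold change of the 10 was 0.87, and that of all genes tested was 0.00102. At the edges of the rule, PER3 lay just inside the fold threshold at 1.28 and BHLHE40 just outside it at 0.96.

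**Figure D2:**
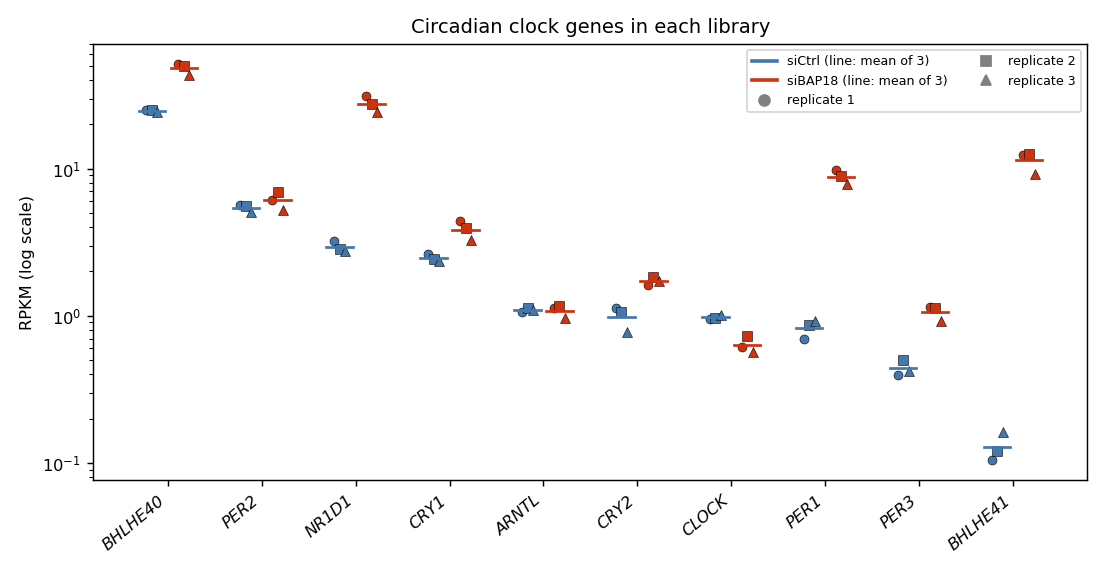
RPKM of the 10 clock genes (vertical axis, log scale) in the 3 siCtrl and 3 siBAP18 libraries, with marker shapes for replicates and a line at the mean of each group. Genes run from the highest to the lowest siCtrl mean, and BHLHE41 moves from 0.104 to 0.161 RPKM up to 9.15 to 12.6 RPKM, while ARNTL and PER2 overlap between the groups.

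BHLHE41 (chr12:26120026-26125127, − strand of hg38), which encodes DEC2, had the widest difference of the 10. It was counted 22, 22 and 30 times in siCtrl and 2637, 2821 and 1521 times in siBAP18. The gene was near the bottom of detection in each control library and well detected in each siBAP18 library. Per length, its level was 0.104, 0.121 and 0.161 RPKM against 12.4, 12.6 and 9.15 RPKM. In CPM, counts relative to library totals scaled by the TMM method, the mean moved from 0.509 ± 0.118 (SD, n = 3) to 44.8 ± 6.27 (SD, n = 3), which is 88.2-fold on the fitted scale. The log2 fold change of 6.46 (standard error 0.145) was the 25th highest of the 20776 genes tested. With the control at 22 to 30 counts, this ratio depends on the constant added to low values. It fell to 3.44 on the log2(RPKM + 1) scale, and leaving out each library in turn gave 6.32 to 6.66.

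BHLHE40 (chr3:4979116-4985323, + strand), which encodes DEC1 and is a known early target of hypoxia, p53 and growth factors, was the most abundant of the 10 in both groups. Its level was 24.9, 25.0 and 24.3 RPKM in the siCtrl libraries and 51.6, 49.8 and 43.1 RPKM in the siBAP18 libraries. The siCtrl libraries were within 1 RPKM of each other, and each siBAP18 library was well above them. The TMM-scaled mean moved from 95.1 ± 1.20 CPM (SD, n = 3) to 184.4 ± 12.5 CPM (SD, n = 3), a log2 fold change of 0.96 (standard error 0.0679) or 1.94-fold. The value was 1.01 without siBAP18 replicate 3, which takes it past the fold threshold, and lay between 0.91 and 1.01 over the libraries left out in turn. In each siCtrl library BHLHE41 contributed 0.415% to 0.659% of the summed RPKM of the pair, and in each siBAP18 library 17.5% to 20.2%. The sum itself went from 24.5 to 25.1 RPKM in siCtrl to 52.2 to 64.0 RPKM in siBAP18.

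The PER genes, whose proteins carry the delayed inhibition of CLOCK and ARNTL, differed unequally from each other. PER1 (chr17:8140472-8156506, − strand) was at 0.700, 0.862 and 0.925 RPKM in the siCtrl libraries and at 9.77, 8.88 and 7.85 RPKM in the siBAP18 libraries. Each siBAP18 library was thus several times the highest control library. The mean went from 5.82 ± 0.802 CPM (SD, n = 3) to 61.7 ± 5.55 CPM (SD, n = 3), and the log2 fold change was 3.41 (standard error 0.0958), or 10.7-fold. PER3 (chr1:7784320-7845177, + strand) was at 0.396, 0.499 and 0.419 RPKM against 1.14, 1.13 and 0.921 RPKM, with a log2 fold change of 1.28 (standard error 0.118). The PER3 groups were separate at a low level, and its fold change was 0.52 on the log2(RPKM + 1) scale, under the fold threshold. PER2 (chr2:238244038-238290102, − strand) was at 5.63, 5.55 and 5.11 RPKM against 6.13, 6.91 and 5.24 RPKM. Its siBAP18 replicate 3 fell within the control range, and the log2 fold change was 0.16 (standard error 0.0769).

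The makeup of the PER transcripts differed accordingly. PER2 gave 79.2% to 83.7% of the summed PER RPKM in the siCtrl libraries and 36.0% to 40.8% in the siBAP18 libraries. PER1 gave 10.4% to 14.3% in siCtrl and 52.5% to 57.4% in siBAP18, so that the more abundant of these 2 genes was PER2 in each siCtrl library and PER1 in each siBAP18 library. PER3 gave 5.89% to 7.22% and 6.57% to 6.68%, which overlap. The sum of the 3 was at most 6.91 RPKM in a siCtrl library and at least 14.0 RPKM in a siBAP18 library.

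CRY1 and CRY2, the partners of the PER proteins in repression, were both higher in siBAP18 cells by less than the fold threshold. CRY1 (chr12:106991364-107093829, − strand) was at 2.62, 2.44 and 2.37 RPKM in the siCtrl libraries and 4.38, 3.92 and 3.26 RPKM in the siBAP18 libraries, a log2 fold change of 0.63 (standard error 0.0905). CRY2 (chr11:45847118-45883248, + strand) was at 1.12, 1.06 and 0.777 RPKM against 1.61, 1.82 and 1.72 RPKM, a log2 fold change of 0.79 (standard error 0.115). The lowest siBAP18 library lay above the highest siCtrl library for both genes. The ratio of CRY1 to CRY2 RPKM averaged 2.56 ± 0.416 (SD, n = 3) in siCtrl and 2.26 ± 0.425 (SD, n = 3) in siBAP18, and its groups overlapped.

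NR1D1 (chr17:40092787-40100725, − strand), the nuclear receptor that represses ARNTL, was at 3.24, 2.83 and 2.77 RPKM in the siCtrl libraries and at 31.4, 27.5 and 24.3 RPKM in the siBAP18 libraries. The 2 groups were far apart relative to the spread within either. The mean went from 8.19 ± 0.756 CPM (SD, n = 3) to 76.6 ± 8.60 CPM (SD, n = 3), a log2 fold change of 3.22 (standard error 0.0910) or 9.34-fold. It was the second most abundant of the 10 in siBAP18 cells and the third in siCtrl cells.

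Of the activators, CLOCK was lower and ARNTL overlapped between the groups, as did the repressor PER2. CLOCK (chr4:55427903-55547138, − strand), the bHLH-PAS partner of ARNTL, was at 0.957, 0.962 and 1.00 RPKM in the siCtrl libraries and at 0.617, 0.725 and 0.566 RPKM in the siBAP18 libraries. All siBAP18 libraries lay below the controls, with a log2 fold change of −0.62 (standard error 0.0962), which is 0.651-fold. ARNTL (chr11:13276652-13387266, + strand) was at 1.06, 1.13 and 1.10 RPKM against 1.13, 1.16 and 0.971 RPKM. Its groups overlapped, and the log2 fold change was −0.02 (standard error 0.10).

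**Figure D3:**
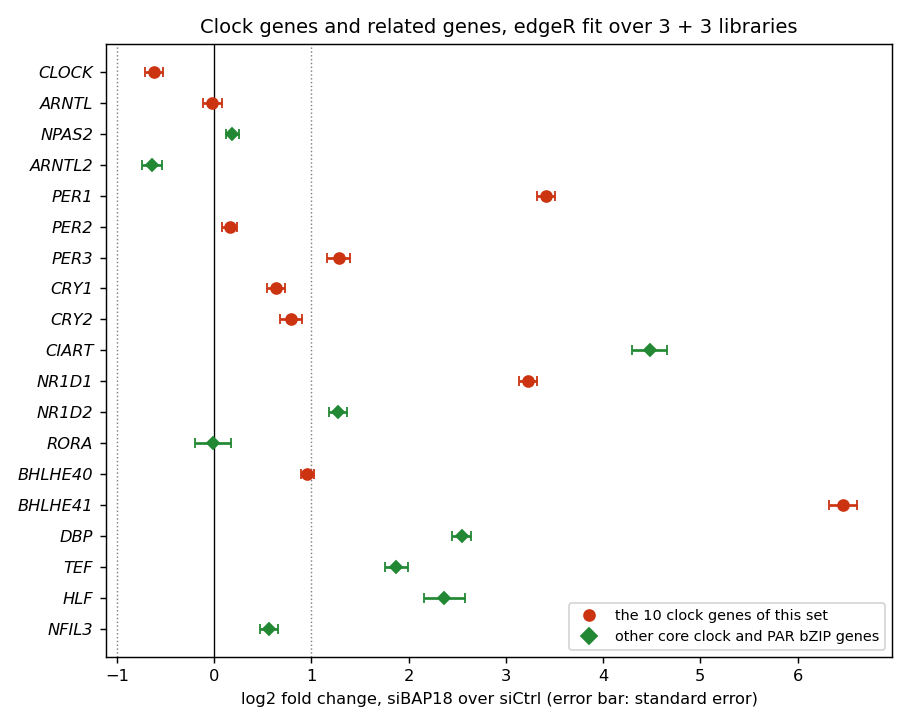
Log2 fold change of siBAP18 over siCtrl (horizontal axis) with its standard error for the 10 clock genes (circles) and 9 related genes (diamonds), ordered by role from activators to output factors. The dotted lines mark the fold threshold of 1 on either side, and BHLHE41 at 6.46, CIART at 4.48, PER1 at 3.41 and NR1D1 at 3.22 lie farthest to the right.

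The order of the levels per length differed between the groups. In siCtrl cells it ran from BHLHE40 at 24.7 ± 0.353 RPKM (SD, n = 3) through PER2, NR1D1, CRY1, ARNTL, CRY2, CLOCK, PER1 and PER3 to BHLHE41 at 0.129 ± 0.0295 RPKM (SD, n = 3). ARNTL overlapped CRY2, and CRY2 overlapped CLOCK, while the other neighbours were separate. In siBAP18 cells it ran from BHLHE40 at 48.2 ± 4.49 RPKM (SD, n = 3) through NR1D1, BHLHE41, PER1, PER2, CRY1, CRY2, ARNTL and PER3 to CLOCK at 0.636 ± 0.0812 RPKM (SD, n = 3). There BHLHE41 overlapped PER1, and ARNTL overlapped PER3. BHLHE41 thus moved from the last place to the third, and CLOCK from the seventh to the last.

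Ratios within a library are free of the scaling between libraries. The ratio of BHLHE41 to BHLHE40 RPKM averaged 0.00522 ± 0.00127 (SD, n = 3) in siCtrl and 0.235 ± 0.0211 (SD, n = 3) in siBAP18. The ratio of PER1 to PER2 averaged 0.154 ± 0.0284 and 1.46 ± 0.158 (SD, n = 3 each), and that of PER3 to PER2 averaged 0.0808 ± 0.00986 and 0.175 ± 0.0113 (SD, n = 3 each). For the activators and their paralogs, CLOCK to NPAS2 averaged 0.286 ± 0.0117 in siCtrl and 0.164 ± 0.0222 in siBAP18, and ARNTL to ARNTL2 averaged 0.624 ± 0.0196 and 0.978 ± 0.129 (SD, n = 3 each). The ratio of NR1D1 to its paralog NR1D2 averaged 2.16 ± 0.153 and 8.41 ± 0.646 (SD, n = 3 each). Of these 7 ratios only that of CRY1 to CRY2 overlapped between the groups. Every pair includes a gene of the set that was chosen on these counts. The share of separate ratios among other pairs was not computed, so nothing is read from this number.

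**Figure D4:**
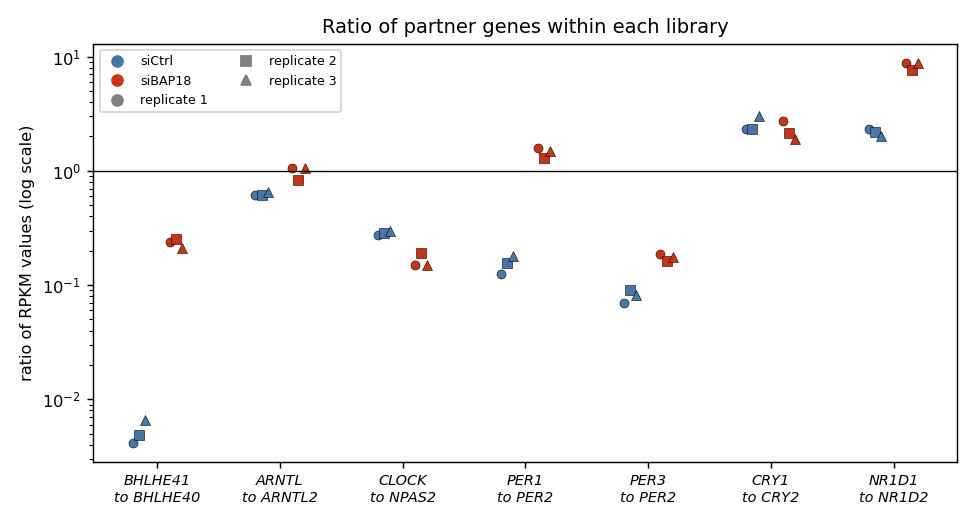
Ratio of RPKM values of 7 pairs of clock genes within each library (vertical axis, log scale, line at a ratio of 1), with colors for the groups and marker shapes for the replicates. PER1 to PER2 crosses the line, from 0.154 in the siCtrl mean to 1.46 in the siBAP18 mean, and CRY1 to CRY2 is the pair whose groups overlap.

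Among the siBAP18 libraries, replicate 3 gave the lowest TMM-scaled level for 9 of the 10 clock genes, and CRY2, lowest in replicate 1, was the exception. BHLHE41 in that library was 0.24 below the mean of its group on the log2 CPM scale, CRY1 0.18 below and PER2 0.15 below. CLOCK, which was lower in siBAP18 cells, was also lowest in that library, by 0.11. C17orf49 was highest in the same library, by 0.15 above its group mean. Replicate 3 also had the fewest counts of the 6 libraries, and whether residual BAP18, depth or another property moves with the clock genes was not tested. All 10 genes kept their direction with each library left out in turn except ARNTL, which ranged from −0.04 to 0.03. The spread of the clock genes was ordinary for these data. Their dispersion, the squared variation beyond counting error that edgeR assigns a gene, was 0.00351 to 0.00720, above the median of 0.00634 over all genes tested for 2 of the 10.

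**Figure D5:**
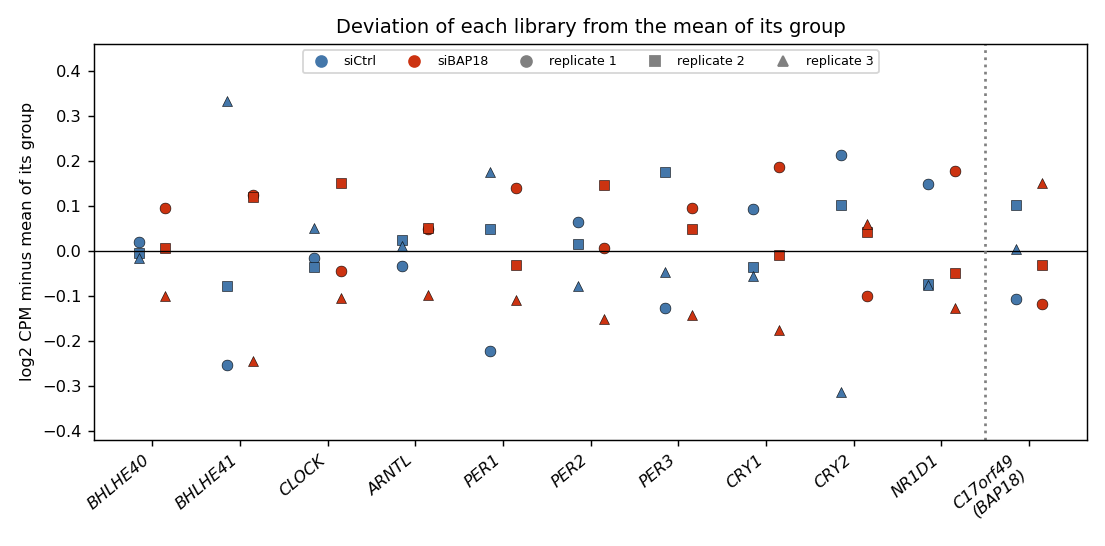
Deviation of each library from the mean of its own group (vertical axis, log2 CPM) for the 10 clock genes and, right of the dotted line, C17orf49, with colors for groups and marker shapes for replicates. Triangles of siBAP18, replicate 3, are the lowest of their group for 9 of the 10 clock genes and the highest for C17orf49.

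Several of these genes share exon bases with a neighbour. The libraries were made strand-specific according to the labels, but whether strand was used in counting is not given in the sources used here. BHLHE41 shares 162 bases, 4.1% of its exon bases, with SSPN on the opposite strand. SSPN, which encodes sarcospan, was counted 19, 22 and 22 times in siCtrl and 147, 136 and 112 times in siBAP18 (log2 fold change 2.58, edgeR adjusted p = 6.63e-10), so that SSPN had far fewer counts than BHLHE41 in each siBAP18 library. NR1D1 shares 263 bases (9.49%) with THRA, the thyroid hormone receptor gene on the opposite strand, which was counted 4586 to 5393 times in siCtrl and 5139 to 6491 times in siBAP18 (log2 fold change 0.25, edgeR adjusted p = 0.0037). PER3 shares 868 bases (10.72%) with UTS2, which had 31 counts at most in a library, and 482 bases (5.95%) with the antisense gene RP3-467L1.4, which had 73 at most. For the other 7 genes, shared bases were at most 2.73% of their exon bases. Reads from these shared bases may be assigned to either gene, so the levels of BHLHE41, NR1D1 and PER3 carry that uncertainty.

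The related genes were described from 8 lists compiled by hand, which held 84 genes. Of these, 75 were tested, 6 had too few counts and 3 were not analysed here. Of those tested, 6 were called higher, which is 8.0%, and 1 was called lower, which is 1.33%, beside the 4.72% and 3.74% of all genes given above. With the adjusted p alone 27 were higher and 20 lower, beside 24.5% and 25.1% of all genes tested. The counts of each list below on the adjusted p alone stand beside these same shares. The median log2 fold change of the 75 was 0.06. The lists were drawn up with results of these data known, and these counts are descriptions.

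Among the other core clock genes, 2 of 6 tested were called higher, CIART and NR1D2, and none lower. CIART, also named CHRONO, is a repressor of the CLOCK and ARNTL dimer. It was counted 22, 14 and 16 times in the siCtrl libraries and 477, 471 and 284 times in the siBAP18 libraries, and rose from 0.352 ± 0.0570 CPM (SD, n = 3) to 7.95 ± 0.886 CPM (SD, n = 3), a log2 fold change of 4.48 (standard error 0.180, edgeR adjusted p = 3.33e-16). Its groups were widely separate, and replicate 3 was again the lowest of siBAP18. NR1D2, or REV-ERBβ, rose from 7.96 ± 0.414 CPM to 19.2 ± 2.14 CPM (SD, n = 3 each), with the log2 fold change at 1.27 (standard error 0.0933, edgeR adjusted p = 2.93e-11). ARNTL2 fell by 0.64 on the log2 scale (standard error 0.107, edgeR adjusted p = 1.9e-05), under the fold threshold. NPAS2, which can stand in for CLOCK, had a log2 fold change of 0.19 (standard error 0.0679, edgeR adjusted p = 0.0244). The adjusted p of NPAS2 missed 0.05 in 7 of 16 alternatives, 4 of them with 1 library left out (siBAP18 replicate 1 or any siCtrl replicate), and reached 0.131 without siBAP18 replicate 1. RORA, a nuclear receptor that acts on the same elements as NR1D1, had a log2 fold change of −0.01 (standard error 0.182, edgeR adjusted p = 0.954), and RORB, with 2 counts at most in a library, was not tested.

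The PAR bZIP factors, transcription factors that bind D-boxes and are themselves driven by the clock, all rose. DBP was counted 243, 201 and 181 times in the siCtrl libraries and 1494, 1304 and 1010 times in the siBAP18 libraries, and its log2 fold change was 2.55 (standard error 0.0993, edgeR adjusted p = 1.98e-16). TEF was counted 168, 164 and 139 times against 689, 603 and 505 times (log2 fold change 1.87, standard error 0.115, edgeR adjusted p = 1.2e-12). HLF, with 40, 28 and 24 counts against 195, 208 and 102, had a log2 fold change of 2.37 (standard error 0.211, edgeR adjusted p = 9.32e-10). Each of the 3 had its lowest siBAP18 count in replicate 3, the library with the fewest counts in all. Per library total this held for HLF alone, at 0.367 RPKM in replicate 3. DBP and TEF were lowest in siBAP18 replicate 2, at 3.52 and 2.26 RPKM, against 3.67 and 2.54 RPKM in replicate 3. NFIL3, a repressor that binds the same D-boxes, rose from 10.3 ± 0.371 CPM to 15.2 ± 1.88 CPM (SD, n = 3 each), with the log2 fold change at 0.57 (edgeR adjusted p = 1.63e-05), under the fold threshold. Among the 10 core clock and PAR bZIP genes of these 2 lists that had a RefSeq window, E-boxes were found for CIART, NR1D2 and TEF. These are 3 of 10, beside 8.775% of all genes with a window. No E-box was found for DBP, HLF, NFIL3, NPAS2, ARNTL2, RORA or RORB, and the window of DBP held none of the 4 motifs. The part of E-boxes in these differences was not tested.

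The enzymes that modify clock proteins were spread about 0. Of 17 kinases, phosphatases and ubiquitin ligases tested, 5 passed the adjusted p alone as higher and 4 as lower. Of all genes tested, 24.5% passed as higher and 25.1% as lower, which applies also to the cofactors below. With edgeR, DESeq2 and limma alike none was called, and with edgeR 5 were higher and 4 lower at an unadjusted p under 0.05. The smallest adjusted p belonged to PPP1CC and PRKAA1. PPP1CC, a catalytic subunit of protein phosphatase 1, had a log2 fold change of −0.65 (edgeR adjusted p = 2.08e-07). PRKAA1, a catalytic subunit of AMP-activated kinase, had one of −0.50 (edgeR adjusted p = 4.65e-06). Of 15 chromatin cofactors of the clock, 5 passed as higher and 5 as lower on the adjusted p, the same numbers as on the unadjusted p, and none was called by edgeR, DESeq2 or limma. EZH2, the histone H3 lysine 27 methyltransferase, had a log2 fold change of −0.68 (edgeR adjusted p = 1.28e-07), and SIN3A, a corepressor scaffold, one of −0.49 (edgeR adjusted p = 1.9e-06).

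Of 9 clock output genes, 3 were higher and 3 lower on the adjusted p alone, beside 24.5% and 25.1% of all genes. NAMPT, the rate-limiting enzyme of NAD salvage, lay just outside the rule for lower genes at −0.95 (edgeR adjusted p = 1.86e-10) and just inside it, at −1.02, without siBAP18 replicate 2, and was named after its values were seen.

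The protein families that BHLHE40, BHLHE41, CLOCK and ARNTL belong to are given beside them. Their counts on the adjusted p again stand beside 24.5% higher and 25.1% lower of all genes tested. Of 8 HES and HEY genes tested, the nearest relatives of BHLHE40 and BHLHE41, none was called by edgeR, DESeq2 or limma, and 1 passed the adjusted p, the same number as at an unadjusted p under 0.05. That gene was HES1, a Notch target, which rose from 29.1 ± 2.18 CPM to 43.9 ± 2.04 CPM (SD, n = 3 each), with the log2 fold change at 0.59 (edgeR adjusted p = 2.5e-07). HES7 had a log2 fold change of −0.38 (edgeR adjusted p = 0.0972). Of 8 bHLH-PAS relatives of CLOCK and ARNTL tested, 4 passed the adjusted p as higher and 1 as lower. The latter was HIF1A, the oxygen-regulated factor, which fell by 1.06 on the log2 scale, from 141.3 ± 4.49 CPM to 67.7 ± 1.37 CPM (SD, n = 3 each, edgeR adjusted p = 1.19e-12), and was called lower. Of 8 genes of the CREB family and its CRTC coactivators, which are known to act on PER1 through TGACG sites, 2 passed the adjusted p as higher and 5 as lower, and none was called by edgeR, DESeq2 or limma. ATF1 rose by 0.76 on the log2 scale (edgeR adjusted p = 4.92e-08), and CRTC1 fell by 0.64 (edgeR adjusted p = 5.59e-07).

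The genes whose levels ran most like those of BHLHE41 and BHLHE40 were sought among 14212 genes whose log2 CPM averaged 1 or more, by the root mean square difference over the 6 libraries of log2 CPM relative to the siCtrl mean. For BHLHE41 the nearest was EGR1, an immediate early transcription factor, at a root mean square difference of 0.279. EGR1 was at 0.107, 0.111 and 0.0947 RPKM in the siCtrl libraries and at 9.32, 8.40 and 7.76 RPKM in the siBAP18 libraries, a log2 fold change of 6.33 (standard error 0.139). The next were STMN4 (0.511), VGF (1.04), DHRS2 (1.18) and ALOXE3 (1.33), so only EGR1 and STMN4 ran within 1 log2 unit of BHLHE41. STMN4 was at or under 3 counts in each siCtrl library, and no fold is given for it. BHLHE40 had a log2 fold change of 0.96, higher than that of 94.58% of the genes tested. Its 5 nearest were TMEM156 (0.0307), IFRD1 (0.0387), SDC4 (0.0398), TNFRSF10B (0.0401) and AMOTL2 (0.0417). These had log2 fold changes from 0.91 to 1.01. Likeness over 6 libraries in 2 groups mostly measures the same difference between the groups.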

How the data were processed

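RNA was sequenced from 6 A549 libraries, 3 siCtrl and 3 siBAP18, grouped by their titles. The authors deposited 1 table of counts per gene, whole numbers without normalization, and 1 of RPKM, which were recomputed from the counts and column totals to within 4.55e-11. Per the labels the builds are hg38 and, with no role given, GRCm38. Name, start and end of 22872 of 35474 genes and of all 10 clock genes matched GENCODE v29. The aligner, counter and strand setting are not given in the sources used here. Depth was 42094524 to 56548620 counts per library, and SDs are those between cultures, which the labels call biological replicates.

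Counts were filtered with filterByExpr, scaled by TMM and compared with edgeR 4.0.16 (quasi-likelihood, Benjamini-Hochberg) in R 4.3.3. The standard error is the absolute log2 fold change over the square root of F. On simulated counts the steps recovered 200 of 200 changed genes and called 1 other of 20477. The changed genes were well counted, their folds lay well past the threshold, and all genes had the same dispersion. Recovery near the threshold or at low counts was therefore not examined. Alternatives were DESeq2 1.42.0, limma 3.58.1 on log2 RPKM with 1 or 0.1 added, for genes averaging 0.5 RPKM or more or without that filter, at least 10 counts in every library, other scalings, a replicate block and each library left out. Motifs, ratios and figures used Python 3.11.15, pandas 2.3.3, numpy 2.4.6 and matplotlib 3.10.9.

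The members and lists were chosen with earlier results of these data known. Named genes are the 10 clock genes, C17orf49, the 2 lists of other core clock and PAR bZIP genes, from each other list the called genes up to 4 by adjusted p or else the 2 with the smallest adjusted p, and the 5 genes nearest to BHLHE41 and to BHLHE40. Pairs of replicates differed by more than counting error, at a chi-square of 4.17 to 25.8 per degree of freedom. Sequences of siRNAs and proteins were not used here, and some listed genes are not reported here by name.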

Additional observations from a re-analysis of the deposited data

How the results depend on the processing

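The 10 clock genes kept their side of the call thresholds in 157 of 160 recomputed values, and 1 value changed sign, that of ARNTL, from −0.02 to 0.03 without siBAP18 replicate 3. The other 3 were PER3 at 0.52 on the log2(RPKM + 1) scale with and without a filter, so that 3 of the 10 were called higher there, and BHLHE40 at 1.01 without siBAP18 replicate 3, where 5 were. On the adjusted p alone 7 of the 10 were higher and 1 lower, and of the listed genes 27 were higher and 20 lower. The shares of all genes tested were 24.5% and 25.1%. Listed genes kept their side of the thresholds in 1180 of 1184 values, and 14 values, of 9 genes whose log2 fold changes were at most 0.11 in size, changed sign. The exceptions were NR1D2 at 0.86 in both log2(RPKM + 1) fits, HLF at 0.44 in the one without a filter and NAMPT, which brought the listed genes called lower from 1 to 2 without siBAP18 replicate 2 (a range of 1 to 2 over the libraries left out).

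Over all genes, 981 were called higher and 777 lower. At least 10 counts in every library gave 605 higher. With limma there were 215 higher and 133 lower on log2(RPKM + 1), 475 and 434 on log2(RPKM + 0.1), and 212 and 133 on log2(RPKM + 1) without a filter, where low genes are compressed by the constant. The adjusted p alone gave 5089 and 5216. With the replicate block the numbers were 968 and 773, and residuals of libraries with the same number correlated at −0.017, 0.051 and 0.0038, so the numbers did not pair the libraries. Among the 10 clock genes, BHLHE41 had the fewest counts in siCtrl, at 22 to 30 a library.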
